A study of Mus musculus with 24 samples.

Results

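Matrix metalloproteinases (MMPs) and their tissue inhibitors (TIMPs) were followed in primary murine astrocytes after X-irradiation. The set consisted of 10 of the 49315 genes counted, found by symbol: the proteases *Mmp2*, *Mmp3*, *Mmp9*, *Mmp10*, *Mmp12*, *Mmp13* and *Mmp14*, and the inhibitors *Timp1*, *Timp2* and *Timp3*. The question was whether a low (0.1 Gy) or a higher (2 Gy) dose of X-rays altered their mRNA 6 h or 24 h after exposure. The astrocytes came from the cortex of wild type C57BL/6J embryos of late gestation and were used at passage 1. All embryos of a pregnant mouse were pooled, so that a culture stands for a litter and not an embryo. Doses of 0 Gy (mock irradiation), 0.1 Gy and 2 Gy were each followed by harvest at both times, giving 6 conditions with 4 libraries each, numbered 1 to 4. Libraries held between 14742855 and 38194800 counts.

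MMPs are zinc-dependent endopeptidases that cut the proteins of the extracellular matrix. Most are secreted as latent proenzymes and become active when their propeptide is removed. TIMPs block the active site. In the brain these proteins remodel the perineuronal and vascular matrix, and the gelatinases Mmp2 and Mmp9, which degrade collagen IV, are known for opening the blood-brain barrier after injury. Mmp14, anchored in the plasma membrane, activates the proenzyme of Mmp2 in a complex with Timp2. An mRNA level says nothing of these activation steps.

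None of the genes was called changed by either dose in any of the fits that used all 4 replicates. *Mmp9* and *Mmp13* were lower 24 h than 6 h after exposure, and *Mmp12*, *Mmp3* and *Timp3* in part, but with all libraries this passed the test only when the replicate number was a block in the fit. The levels of the 9 tested members differed most between replicate numbers. The threshold for a call was an adjusted p of 0.05 (edgeR's quasi-likelihood test, Benjamini-Hochberg adjustment over all genes tested). Of the 10 genes 9 passed edgeR's filter on low counts in every comparison, whereas *Mmp10* did not and was not tested in these fits.

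The members are spread over 7 chromosomes (GRCm38). *Mmp9* lies at chr2:164940780-164955850, *Mmp2* at chr8:92827291-92853420, *Mmp14* at chr14:54431612-54441265, *Timp3* at chr10:86300372-86349506 and *Timp1* at chrX:20870166-20874735, all on the plus strand, and *Timp2* lies at chr11:118301069-118355740 on the minus strand. *Mmp13*, *Mmp12*, *Mmp3* and *Mmp10* lie side by side in one orientation on chromosome 9, within 237.7 kb (chr9:7272514-7510240, plus strand). RefSeq promoter windows of GRCm38.p6 were found for 8 of the 10 genes (9 windows, 2 of them for *Mmp12*). *Mmp2* and *Mmp9* had none. The 150 bases before the start were searched for TGANTCA, the core of the site bound by AP-1 (Fos and Jun proteins), which has the same form on both strands. It occurred in 1394 of 32851 windows (4.24%). Among the members it occurred once in a window of each of the 4 clustered genes and in none of the windows of *Mmp14*, *Timp1*, *Timp2* and *Timp3*. These 4 stretches are shown since all 4 genes of this cluster had lower mean levels at 24 h than at 6 h at each dose. This was not particular to the cluster. *Mmp2*, *Mmp9*, *Mmp14*, *Timp2* and *Timp3* also had lower means at 24 h at each dose, and *Mmp14*, *Timp2* and *Timp3* have no TGANTCA in their windows. The stretches end at the base before the start, and the capitals mark TGANTCA.
Mmp13, chr9:7272364-7272513: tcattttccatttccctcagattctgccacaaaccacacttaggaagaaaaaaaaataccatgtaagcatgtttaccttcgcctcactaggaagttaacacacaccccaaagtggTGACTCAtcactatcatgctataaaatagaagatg
Mmp12, the downstream of the 2 starts, chr9:7347224-7347373: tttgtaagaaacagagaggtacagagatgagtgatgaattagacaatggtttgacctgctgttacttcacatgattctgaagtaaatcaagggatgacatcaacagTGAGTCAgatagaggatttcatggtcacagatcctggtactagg
Mmp3, chr9:7445672-7445821: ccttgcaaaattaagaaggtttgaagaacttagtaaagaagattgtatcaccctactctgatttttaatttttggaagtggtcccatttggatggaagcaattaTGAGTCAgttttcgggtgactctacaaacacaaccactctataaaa
Mmp10, chr9:7502192-7502341: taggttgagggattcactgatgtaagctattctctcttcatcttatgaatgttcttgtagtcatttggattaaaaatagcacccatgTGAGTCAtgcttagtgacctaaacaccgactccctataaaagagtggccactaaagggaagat

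The first base of TGANTCA lay at position -35 in *Mmp13*, -44 in *Mmp12*, -46 in *Mmp3* and -63 in *Mmp10*, counted back from -1 at the base before the start. The first start of *Mmp12* had no TGANTCA in its window. TATAAA was found in the windows of *Mmp13*, *Mmp3* and *Mmp10* (positions -16, -7 and -29), against 2488 of all windows on either strand (7.57%). Both motifs stood in 168 windows (0.511%). Such matches are descriptions of sequence, and no binding was measured here.

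Levels of different genes were compared as RPKM, which is the normalised count scaled to library size (CPM) and divided by the exon length in kb. The inhibitors *Timp2* and *Timp3* were the most abundant members. *Timp2* had the highest level (median 241 RPKM over the 24 libraries, range 182 to 268), followed by *Timp3* (110, range 34.8 to 194), an inhibitor that binds to the matrix and also blocks ADAM proteases. *Mmp14* was the leading protease (39.6, range 26.6 to 54.7). *Timp1*, the inducible inhibitor that forms a complex with proMmp9, had a median of 36.6 RPKM (range 15.4 to 46.7). The other proteases were far lower. The median level was 7.19 RPKM for *Mmp2*, 2.76 for the stromelysin *Mmp3*, 1.63 for the macrophage elastase *Mmp12*, 1.11 for *Mmp9*, 0.748 for the collagenase *Mmp13* and 0.0906 for the stromelysin *Mmp10*. Most neighbours in this order kept their place in 20 to 24 of the 24 libraries, but *Mmp3* exceeded *Mmp12* in only 15.

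*Mmp14* alone made up a median of 67.7% of the summed RPKM of the 7 proteases, and *Mmp2* 13.7%. The 3 inhibitors together reached 5.43 to 8.81 times the summed RPKM of the proteases, with a median of 6.94. This ratio was 6.68 ± 0.238 (SD, n = 4) in mock-irradiated cells at 6 h, 6.87 ± 0.277 after 0.1 Gy and 6.92 ± 0.452 after 2 Gy. At 24 h it was 7.37 ± 1.44 in mock-irradiated cells, 6.87 ± 0.91 after 0.1 Gy and 6.93 ± 1.14 after 2 Gy. The means after both doses lay within 1 SD of that of the mock-irradiated cells at 24 h.

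*Mmp10* was close to the detection limit. It had 0 to 14 counts per library and no count in 2 libraries, replicate 4 of 0.1 Gy and replicate 3 of 2 Gy at 24 h. A count of 0 allows up to 3 counts in such a library, by counting error alone. The highest level was 0.403 CPM. At 6 h the libraries ranged from 0.0852 to 0.403 CPM and at 24 h from 0 to 0.292 CPM, so that the times overlapped. By number, *Mmp10* was lower at 24 h in 8 of 8 pairs of irradiated cells and in 3 of 4 of mock-irradiated cells. In fits without the filter it was not called between the times, and the lowest unadjusted p was that at 0.1 Gy (log2 fold change -1.77, unadjusted p = 0.0265, adjusted p = 0.218 in edgeR, and -1.82, 0.0387 and 0.174 in DESeq2). Between doses *Mmp10* was not called in these fits either, where its log2 fold changes had standard errors of 0.52 to 1.2. Smaller differences could have been missed at this depth.

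**Figure D1:**
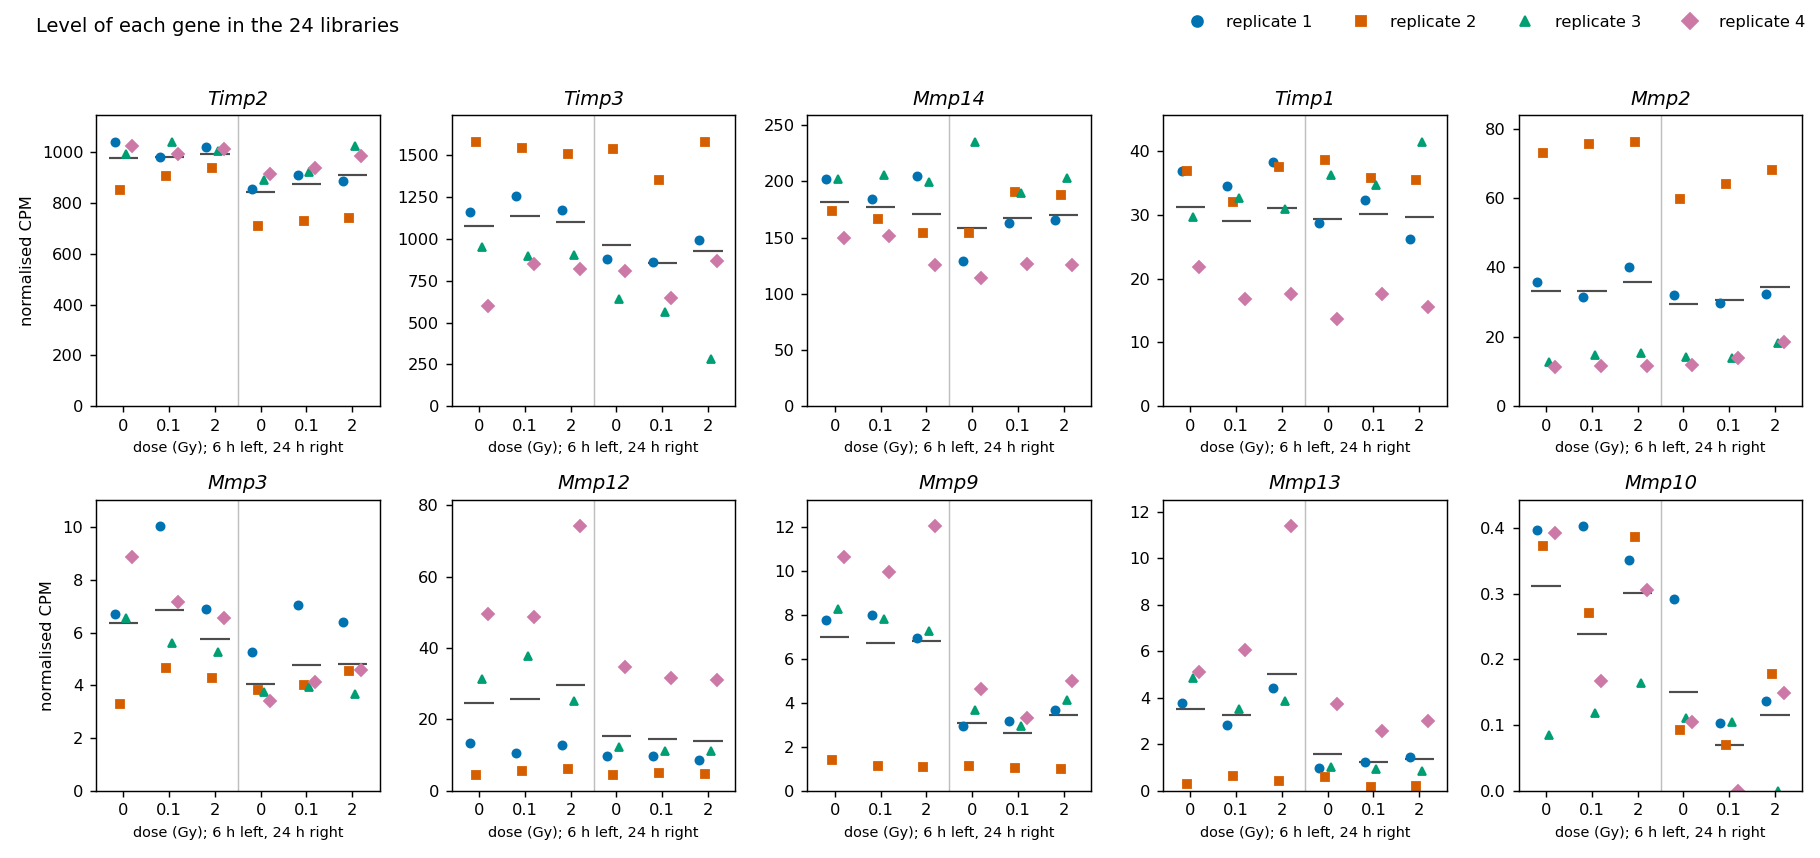
Normalised CPM (linear axis from 0) of each of the 10 genes in each library, by dose (Gy) and time, ordered by median RPKM. Points are single libraries, coloured by replicate number, and lines are means of 4 libraries. *Mmp2* and *Timp3* were highest in replicate 2 in all 6 conditions, and *Mmp9*, *Mmp12*, *Mmp13* and *Timp2* were lowest there.

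The replicate number accounted for most of the spread of each member. Of the sum of squares of log2 CPM over the 24 libraries, the replicate number within a time took from 57.3% (*Mmp3*) to 98.2% (*Mmp2*). The dose within a time took from 0.242% (*Mmp12*) to 5.06% (*Mmp3*). Over all 17353 genes in this division the medians were 50.2% for the replicate number, 7.3% for the dose and 12.8% for the time. Time took 31.3% of the spread of *Timp2*, 26.8% of *Mmp3*, 19.1% of *Mmp13*, 17.8% of *Mmp9* and a smaller share of that of the other members.

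**Figure D2:**
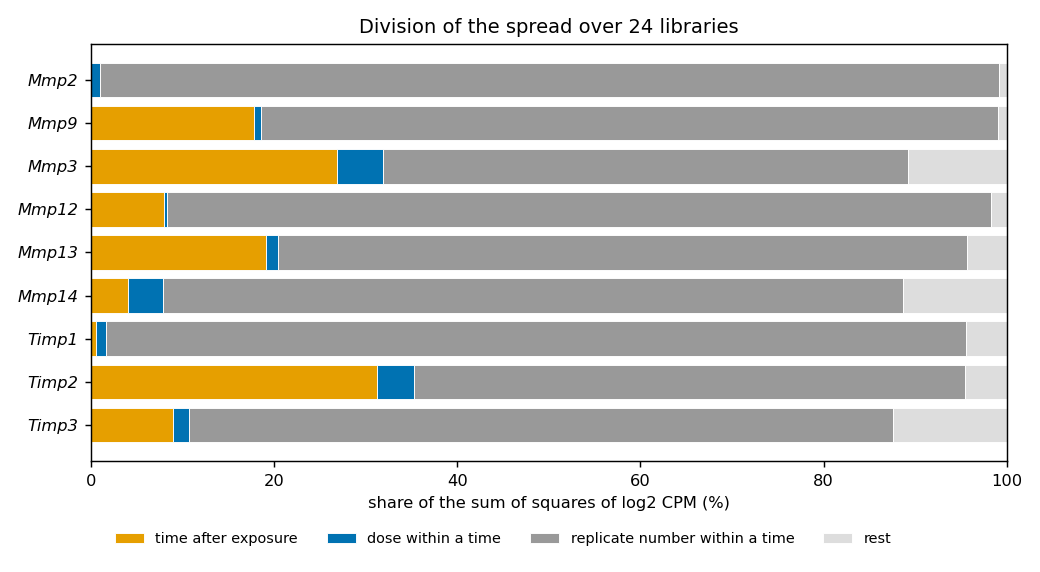
Share (%) of the sum of squares of log2 CPM over 24 libraries that goes with time after exposure, dose within a time and replicate number within a time, for the 9 genes that passed the filter. The grey segment, replicate number, is the longest for every gene, and dose never exceeds 5.06%.

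*Mmp2*, gelatinase A, showed the replicate pattern most clearly. At 6 h replicates 1 to 4 had 35.9, 73.0, 12.6 and 11.3 CPM in mock-irradiated cells, 31.6, 75.5, 14.7 and 11.5 CPM after 0.1 Gy, and 40.1, 76.2, 15.4 and 11.6 CPM after 2 Gy. At 24 h the corresponding values were 32.2, 59.8, 14.3 and 12 CPM at 0 Gy, 29.8, 64.2, 14 and 14 CPM at 0.1 Gy, and 32.3, 68.2, 18.1 and 18.6 CPM at 2 Gy. Replicate 2 was highest and replicates 3 and 4 were lowest in each condition, and the doses overlapped fully. After 2 Gy at 24 h *Mmp2* was slightly higher in each of the 4 pairs, but the difference was not called (log2 fold change 0.29 ± 0.11 (SE), adjusted p = 0.112 with the replicate number as a block, edgeR). When GC content and length were corrected for as well, it was 0.14 (adjusted p = 0.519, edgeR). *Mmp2* was also higher in 4 of 4 pairs after 2 Gy at 6 h (0.13, adjusted p = 0.682 with the block, edgeR) and in 4 of 4 pairs of 2 Gy against 0.1 Gy at 24 h (0.26, 0.89).

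*Timp3* followed a similar order, with 1350 to 1581 CPM in replicate 2 against 284 to 1254 CPM in the other replicates. The lowest value of 284 CPM belonged to replicate 3 of 2 Gy at 24 h, where the same replicate had 642 CPM in mock-irradiated cells and 565 CPM after 0.1 Gy. *Timp3* lies wholly within *Syn3*, a gene of the opposite strand, and shares 1733 exonic bases with it. *Syn3* had 874 counts over all libraries against 616734 for *Timp3*, so that it could add little even if strand was not used in counting.

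*Mmp9*, *Mmp12* and *Mmp13* ran the other way. Replicate 2 was the lowest and replicate 4 the highest of the 4 libraries in all 6 conditions for each of them. *Timp2* was lowest in replicate 2 in all 6 conditions as well, at 710 to 939 CPM against 856 to 1042 CPM elsewhere. *Mmp12*, known from macrophages and microglia, had 4.26 to 6.04 CPM in replicate 2 and 31.1 to 74.2 CPM in replicate 4. *Mmp13* had 0.175 to 0.618 CPM in replicate 2 and 2.57 to 11.4 CPM in replicate 4. *Timp1* and *Mmp14* were lowest in replicate 4 in all 6 conditions (*Timp1* 13.7 to 21.8 CPM there against 26.2 to 41.5 CPM elsewhere). *Timp1* lies wholly within *Syn1*, a gene of the opposite strand with 18958 counts against 18498 for *Timp1*. They share no exonic base. *Timp2* overlaps *Cep295nl* on the same strand but shares no exonic base with it, and *Mmp12* shares 157 exonic bases with *Mmp1b*, which had 0 counts.

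The marker genes of microglia differed between the replicates as well. All 14 were lowest in replicate 2 in all 6 conditions, and their summed level was 279 to 340 CPM there against 1830 to 3268 CPM in the other replicates. All 14 had counts in every library. The 3 most abundant were *Csf1r* (442 CPM on average), *C1qa* (308) and *C1qb* (282). In bulk RNA, fewer cells of a type and less RNA per cell cannot be told apart, and the part of microglia in the levels of *Mmp9*, *Mmp12* and *Mmp13* was not tested. Astrocyte markers were present throughout, led by *Glul* (549 CPM on average), *Aqp4* (540) and *Gfap* (518), and summed to 2485 to 3583 CPM. *Gjb6* alone among the 12 was near 0 (at most 0.45 CPM).

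Markers of other cell types were present as well, and the mean fibroblast and vessel sum was above the mean astrocyte sum in each condition. Of the 14 fibroblast and vessel markers, *Acta2* (4445 CPM on average), *Col1a1* (455) and *Col1a2* (261) led a sum of 3535 to 7855 CPM, and of its endothelial genes *Kdr* (10.8), *Cdh5* (1.96) and *Pecam1* (0.704) had counts in every library while *Cldn5* had none in 21. Of the 12 neuronal markers, *Map2* (223), *Stmn2* (214) and *Tubb3* (67.9) led a sum of 408 to 733 CPM, and *Rbfox3* stayed below 0.888 CPM. The 12 markers of the oligodendrocyte lineage summed to 407 to 888 CPM, led by *Olig1* (315), *Cnp* (118) and *Olig2* (98.9). No marker was at 0 in every library. None of the 5 sums passed a test between a dose and mock-irradiated cells or between the times (two-sided exact permutation test of 4 against 4 libraries, lowest p found 0.143, all adjusted p = 1.0 over 35 tests). This test ignores the replicate number, and its smallest possible p of 0.0286 cannot pass the adjustment in a single comparison, so that it does not show that the sums were alike. By number, the microglial and the oligodendrocyte sums were above those of mock-irradiated cells in 4 of 4 pairs at 24 h after 0.1 Gy and also after 2 Gy, and the neuronal sum was below them in 4 of 4 pairs at 24 h after 0.1 Gy. Between the times the neuronal sum was higher at 24 h in 12 of 12 pairs of the same number and dose, and the oligodendrocyte sum in 4 of 4 pairs after 0.1 Gy and after 2 Gy.

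The members also varied with each other and with other genes over the 24 libraries, as a description of libraries that share replicate numbers. The highest correlation of log2 CPM between members was that of *Mmp9* and *Mmp13* (r = 0.94), followed by *Mmp12* and *Mmp13* (0.898), *Mmp9* and *Mmp12* (0.85) and *Mmp9* and *Timp2* (0.819). The lowest was that of *Mmp2* and *Mmp12* (-0.888). *Mmp14* varied most with *Timp1* (0.781) and *Mmp2* with *Timp3* (0.756).

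Among 17352 other genes, those most like *Mmp2* were *Lamb1*, a laminin chain (r = 0.964), *Adgra2* (0.963) and *Ret*, a receptor tyrosine kinase (0.962). Those most like *Mmp9* were *Anxa4* (0.97), *Steap4* (0.962) and *Csf2rb2*, a cytokine receptor subunit (0.96). *Mmp13* was closest to *Mmp9* itself, *Anxa4* (0.938) and *Ifi44* (0.932), and *Mmp12* to *Bach2os* (0.948), the chemokine *Ccl6* (0.936) and *Ak7* (0.931). The genes nearest to *Mmp3* were less alike, with *Ccdc71l* at 0.828, *4933413C19Rik* at 0.799 and *Slc9a8* at 0.797. Only *Anxa4* was named for more than 1 member, and the values for *Mmp3* and *Timp1* were the lowest. *Mmp14* was closest to *Elp5* (0.868), *Afg3l1* (0.866) and *Dap* (0.855). *Timp1* was closest to the collagen chain *Col6a1* (0.838), *Pa2g4* (0.838) and *Emp2* (0.835). *Timp2* was closest to *Sh3bp2* (0.959), the cytokine *Tgfb1* (0.947) and *Chst1* (0.946), and *Timp3* to *Ric1* (0.961), *Rims1* (0.957) and *Gtf3c4* (0.956).

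Exposure to 0.1 Gy left all tested members without a call. At 6 h their log2 fold changes against mock-irradiated cells lay between -0.11 (*Timp1*) and 0.11 (*Mmp3*), with a median of 0.0012 beside -0.0041 over all genes, and 0 of 9 members and 0.00% of all genes were called. At 24 h they lay between -0.37 (*Mmp13*) and 0.22 (*Mmp3*), with 0 of 9 members and 0.00% of all genes called. With the replicate number as a block, 0.00% of all genes were called at 6 h and 6.84% at 24 h, and 0 of the 9 members at either time. The lowest adjusted p of a member was then 0.885 at 6 h and 0.18 at 24 h (edgeR). DESeq2 called 0 members in the dose comparisons too. This included *Mmp10*, except for 2 Gy against 0.1 Gy at 24 h, where DESeq2 gave it no adjusted p. At an unadjusted p under 0.05 the count of members was 0 in all dose comparisons without the block. With the block it was 1, *Mmp2*, for 2 Gy against 0 Gy and for 2 Gy against 0.1 Gy at 24 h (unadjusted p = 0.0298 and 0.0302, edgeR). Of all genes 32.3% and 4.94% were under 0.05 there. In the other dose comparisons the count of members with the block was 0.

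Exposure to 2 Gy gave the same picture. At 6 h the log2 fold changes of the members were between -0.14 (*Mmp3*) and 0.51 (*Mmp13*), the latter with a standard error of 0.91. The highest value of *Mmp13*, 11.4 CPM in replicate 4, stood beside 4.42, 0.422 and 3.84 CPM in replicates 1 to 3. Without that library the log2 fold change of *Mmp13* was -0.27. At 24 h the members lay between -0.17 (*Mmp13*) and 0.24 (*Mmp3*), with a median of 0.11 beside 0.012 over all genes. With the block and the correction for GC content and length this median was -0.015, beside 0.010 over all genes. Of the 9 members 0 were called at either time, as were 0.00% of all genes. With the block the background was 0.00% at 6 h and 13.2% at 24 h, and again 0 members were called, the lowest adjusted p being 0.682 and 0.112 (edgeR).

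*Mmp14*, the membrane-bound protease, was the only member called in any dose comparison under any alternative, and it was called only with 1 replicate number left out. In mock-irradiated cells at 24 h replicates 1 to 4 had 129, 154, 235 and 114 CPM, and after 2 Gy they had 166, 188, 203 and 125 CPM. Replicates 1, 2 and 4 were higher after 2 Gy and replicate 3 was lower, and the groups overlapped. The log2 fold change was 0.11 ± 0.25 (SE; adjusted p = 0.95, edgeR) without the block. In the blocked fit without replicate 3 it was 0.27 (adjusted p = 0.0052, edgeR), beside 33.1% of all genes called, and with all replicates, the block and a GC content and length correction it was -0.064.

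The doses were compared with each other at 24 h, and their effects between the times. Between 2 Gy and 0.1 Gy the log2 fold changes of the members lay between -0.03 (*Mmp12*) and 0.42 (*Mmp9*), and 0 of 9 members and 0.00% of all genes were called with or without the block. The 3 comparisons at 24 h share libraries, and their values are therefore not independent of each other. The difference of the 2 Gy effect between 24 h and 6 h ranged from -0.67 (*Mmp13*) to 0.40 (*Mmp3*) on the log2 scale. Of the 9 members 0 were called, beside 0.00% of all genes without the block and 6.78% with it.

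**Figure D3:**
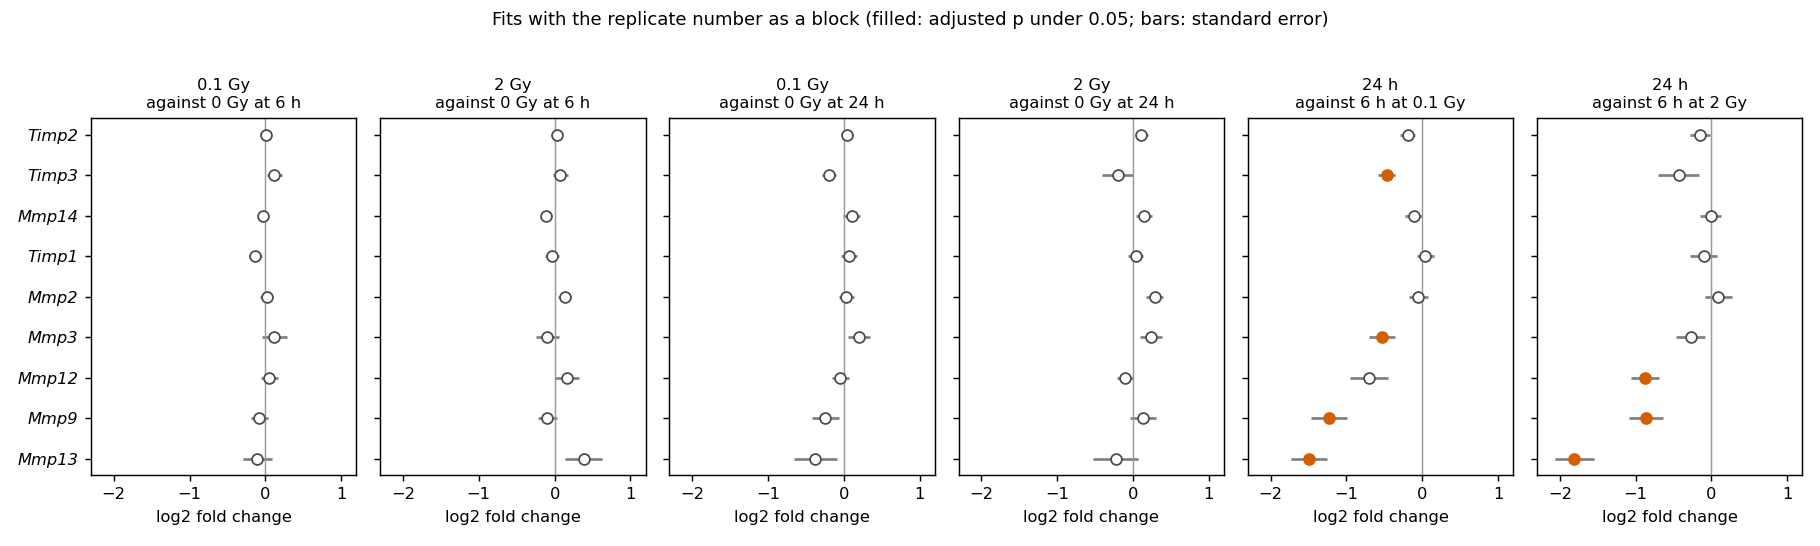
Log2 fold changes (points) with standard errors (bars) of the 9 tested genes in 6 comparisons, from edgeR fits with the replicate number as a block. Filled points passed an adjusted p under 0.05. No point is filled in the 4 dose comparisons, 4 are filled at 0.1 Gy and 3 at 2 Gy in the comparisons of 24 h with 6 h.

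The values at 6 h and 24 h are given for *Mmp9*, *Mmp13*, *Mmp12* and *Mmp3*, of which *Mmp9* and *Mmp13* were called lower at 24 h at both irradiated doses with the block. When GC content and length were corrected for as well, *Mmp12* was also called at both (-0.57, adjusted p = 0.018, and -0.68, 0.0083, edgeR). The gelatinase *Mmp9* had 7.79, 1.41, 8.26 and 10.6 CPM in replicates 1 to 4 of mock-irradiated cells at 6 h and 2.96, 1.12, 3.67 and 4.65 CPM at 24 h. After 0.1 Gy it had 8.0, 1.12, 7.82 and 9.98 CPM at 6 h and 3.16, 1.05, 2.94 and 3.33 CPM at 24 h. After 2 Gy it had 6.93, 1.09, 7.28 and 12 CPM at 6 h and 3.68, 0.982, 4.15 and 5.01 CPM at 24 h. Every library at 24 h was below the library of the same dose and number at 6 h, in 8 of 8 pairs of irradiated cells and in 4 of 4 of mock-irradiated cells. In mock-irradiated cells the numbers were not taken to pair the times, and the pairs there only share a number. The groups overlapped at each dose, since replicate 2 was low at both times.

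*Mmp13* was lower at 24 h in 8 of 8 pairs of irradiated cells and in 3 of 4 of mock-irradiated cells. It had 3.77, 0.29, 4.86 and 5.10 CPM at 6 h and 0.96, 0.606, 1.03 and 3.71 CPM at 24 h in mock-irradiated cells. After 0.1 Gy the values were 2.82, 0.618, 3.50 and 6.04 CPM at 6 h and 1.24, 0.175, 0.938 and 2.57 CPM at 24 h. After 2 Gy they were 4.42, 0.422, 3.84 and 11.4 CPM at 6 h and 1.43, 0.223, 0.848 and 3.01 CPM at 24 h. The exception was replicate 2 of mock-irradiated cells, where 7 counts at 6 h stood against 13 at 24 h.

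Of the 8 irradiated pairs *Mmp12* was lower at 24 h in 8, *Mmp3* and *Timp2* in 7 and *Timp3* in 6. Of the 4 mock-irradiated ones *Timp2* was lower in 4 and *Mmp12*, *Mmp3* and *Timp3* in 3. In replicate 3 *Mmp12* went from 31.3 to 12.4 CPM in mock-irradiated cells, from 37.7 to 11.2 CPM after 0.1 Gy and from 25.2 to 11.2 CPM after 2 Gy. In replicate 2 it changed little, from 4.26 to 4.29, from 5.64 to 5.10 and from 6.04 to 4.64 CPM. *Mmp3* was 6.36 CPM on average in mock-irradiated cells at 6 h and 4.06 CPM at 24 h, with replicate 2 again moving least. *Mmp2* and *Mmp14* were lower in 5 of the 8 irradiated pairs and *Timp1* in 4, so that these genes showed no common direction.

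Without the block, no member passed the threshold in the comparison of 24 h with 6 h. In mock-irradiated cells *Mmp9* had a log2 fold change of -1.19 ± 0.59 (SE, adjusted p = 0.245), *Mmp13* of -1.17 ± 0.79 (0.4), *Mmp12* of -0.70 ± 0.76 (0.617) and *Mmp3* of -0.66 ± 0.31 (0.221; all edgeR). The count was 0 of 9 members beside 6.70% of all genes. The same comparison within the irradiated cells was added after the data had been seen. It gave 0 of 9 members at 0.1 Gy beside 9.90% of all genes, and 0 of 9 at 2 Gy beside 6.95%. At an unadjusted p under 0.05 only *Mmp9* at 0.1 Gy was found in these 3 comparisons, beside 24.7%, 26.5% and 23.2% of all genes at 0, 0.1 and 2 Gy, and DESeq2 called 0 members.

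With the replicate number as a block, 4 of 9 members were called lower at 24 h after 0.1 Gy, beside 25.7% of all genes called. They were *Mmp13* (-1.49 ± 0.24, adjusted p = 0.0018), *Mmp9* (-1.23 ± 0.24, 0.0045), *Timp3* (-0.47 ± 0.11, 0.0119) and *Mmp3* (-0.53 ± 0.17, 0.0404; log2 fold change ± SE, edgeR), while *Mmp12* was not called (-0.70, adjusted p = 0.0587, edgeR). After 2 Gy 3 of 9 were called lower, beside 19.2% of all genes. They were *Mmp13* (-1.81 ± 0.26, adjusted p = 0.0028), *Mmp12* (-0.88 ± 0.19, 0.0125) and *Mmp9* (-0.87 ± 0.22, 0.0259; edgeR), while *Mmp3* was not called (-0.27, adjusted p = 0.35, edgeR). No member was called higher. Without replicate 4 only *Mmp13* remained called after 2 Gy, beside 5.50% of all genes. Without replicate 2, in which the microglial markers were low, 3 members were called at 0.1 Gy and 3 at 2 Gy, beside 18.3% and 11% of all genes. The median of the 9 members was -0.47 at 0.1 Gy and -0.27 at 2 Gy, beside -0.014 and -0.025 over all genes.

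The time effect was not shown to depend on dose. *Mmp13* had a log2 fold change between the times of -1.17 in mock-irradiated cells and of -1.85 after 2 Gy without the block, and the test of this difference gave -0.67 ± 1.3 (SE, adjusted p = 0.931, edgeR). For *Mmp9* the test gave 0.21 ± 0.96 (adjusted p = 0.975, edgeR). With the block it gave -0.59 ± 0.40 for *Mmp13* (adjusted p = 0.327) and 0.24 ± 0.20 for *Mmp9* (0.429, edgeR). The difference between 0.1 Gy and mock-irradiated cells was not tested.

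The change of the summed microglial markers with time was compared with that of *Mmp9* and *Mmp13*. Replicate 2 is given apart, since its levels of these markers and genes were the lowest. The split thus rests on levels of the genes compared. In the 9 pairs of replicates 1, 3 and 4, the log2 change of the sum from 6 h to 24 h lay between -0.65 and 0.21 with a median of -0.19, and it was negative in 7. In the same pairs *Mmp9* changed by -1.56 to -0.80 (median -1.25) and was below the change of the sum in 9 of 9. *Mmp13* changed by -2.15 to -0.45 (median -1.81) and was below it in 8. *Mmp12* was below it in 7 and *Mmp3* in 7. In the 3 pairs of replicate 2 the sum changed by -0.17 to 0.064, *Mmp9* by -0.31 to -0.09 and *Mmp13* by -1.46 to 0.89, and both were below the sum in 2 of 3. Over all 12 pairs the median change was -0.16 for the sum, -1.165 for *Mmp9* and -1.52 for *Mmp13*. *Mmp9* was below the sum in 11 of them and *Mmp13* in 10. The same replicate numbers recur at each dose, so these pairs are not independent units. Those of mock-irradiated cells only share a number. With the block and the correction for GC content and length, single microglial markers were called lower at 24 h, 2 of 14 after 0.1 Gy and 5 of 14 after 2 Gy. Of all genes, these fits called 5948 of 16210 and 4717 of 15965 in either direction. The median log2 fold change of the 14 markers was -0.16 and -0.25. Fibroblast and vessel markers were lower at 24 h too, in the sum in 9 of 12 pairs of the same number and dose. With the block 2 of 11 were called lower after 0.1 Gy, *Dcn* (-0.79) and *Cdh5* (-0.89), beside 25.7% of all genes called. After 2 Gy 3 of 11 were, *Dcn* (-1.47), *Cdh5* (-1.22) and *Col3a1* (-0.81), beside 19.2% of all genes. All were named after their values were seen. The part of these cell types in the time effect was not tested further.

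**Figure D4:**
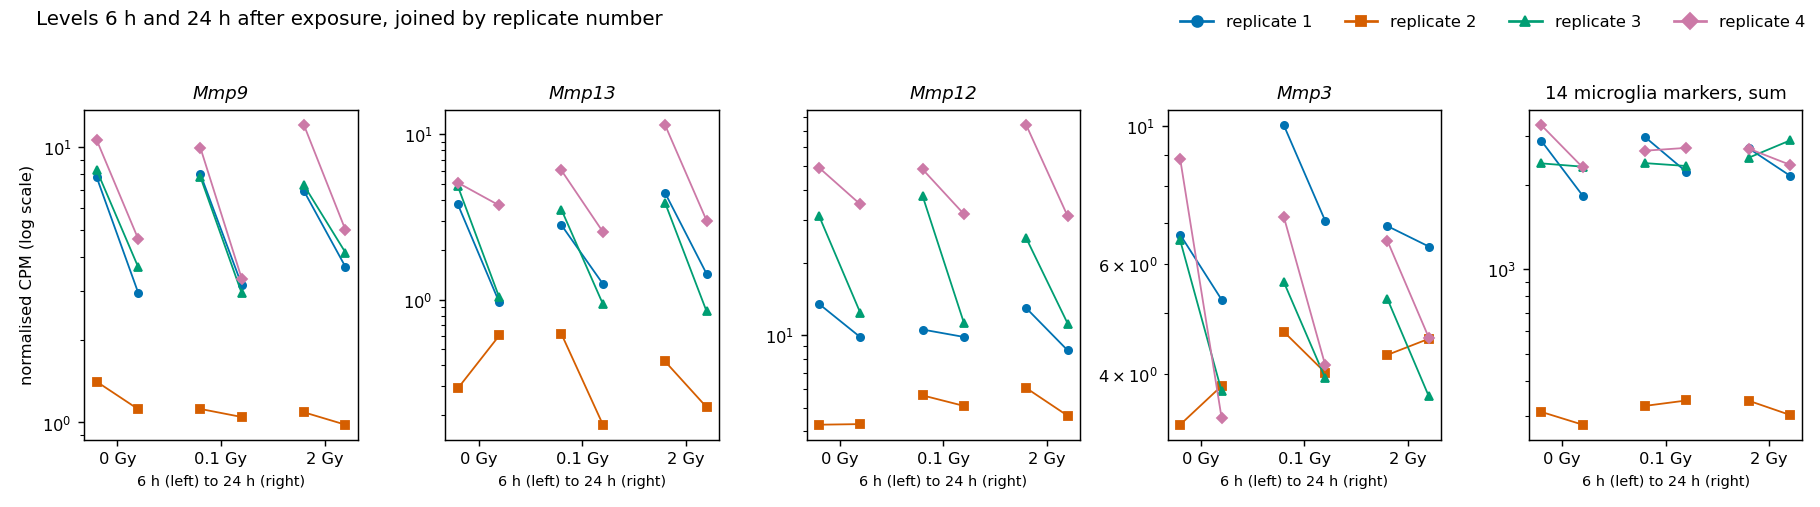
Normalised CPM (log axis) of *Mmp9*, *Mmp13*, *Mmp12* and *Mmp3* and the summed CPM of the 14 microglia markers at 6 h (left end) and 24 h (right end), for each dose and replicate number. The lines of replicates 1, 3 and 4 fall for all 4 genes at each dose, and replicate 2 has the lowest value of each panel at 6 h.

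Other genes of the pathway were examined as 5 lists of related genes, namely further MMPs and *Timp4*, ADAM and ADAMTS proteases, the plasminogen axis, regulators of MMPs, and matrix substrates of the brain. For the difference of the 2 Gy effect between 24 h and 6 h, the block called 1 of 11 regulators higher and 2 lower. It also called 1 of 20 substrates lower and no gene of the other lists, beside 6.78% of all genes. No listed gene was called in a dose comparison without the block, nor with it at 6 h or between 2 Gy and 0.1 Gy. With the block at 24 h some were. The shares of all genes called are the 6.84% and 13.2% given above, and with 1 replicate number left out they ranged from 0.0987% to 23.2% and from 0.432% to 33.1%. In the same fits markers of cell types were called too, here named after their values were seen. After 0.1 Gy the microglial *C1qc* (0.42) and *Trem2* (0.45) and the oligodendrocyte lineage genes *Olig1* (0.41) and *Cnp* (0.38) were higher and neuronal *Map2* was lower (-0.42). After 2 Gy the microglial *C1qa* (0.48) and *Trem2* (0.50), *Cnp* (0.49) and the astrocyte genes *Gfap* (0.36) and *Aldh1l1* (0.34) were higher and microglial *P2ry12* was lower (-0.52). When GC content and length were corrected for as well, *Trem2* after 2 Gy (0.44) alone of these 11 calls was kept. *Trem2* after 0.1 Gy (0.38, adjusted p = 0.0524, edgeR) and *Cnp* after 2 Gy (0.33, 0.0792) missed the threshold, *C1qa* went to 0.10, *Olig1* to 0.09 and *Map2* to -0.094, and *Col1a2* after both doses and *Col3a1* after 0.1 Gy were called higher. The part of these cell types in the calls of listed genes was not tested.

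Among further MMPs, 1 of 10 tested was called after 0.1 Gy and 2 of 10 after 2 Gy, all higher. *Mmp11*, a stromelysin, had log2 fold changes of 0.35 and 0.39, and the membrane-type *Mmp15* had 0.41 after 2 Gy. Neither was called when GC content and length were corrected for (*Mmp11* 0.14 after either dose, *Mmp15* 0.17). Of 19 ADAM and ADAMTS genes, 0 were called after 0.1 Gy, and after 2 Gy *Adam8* was higher (0.36) and *Adam10*, a sheddase, was lower (-0.36). Of 9 genes of the plasminogen axis, only *Serpine2*, an inhibitor of thrombin and plasminogen activators, was called, at 0.47 after 2 Gy.

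Among 11 regulators, 3 were called after 0.1 Gy. The hyaluronan receptor *Cd44* (-0.34) and *Cav1* of caveolae (-0.33) were lower, and the tetraspanin *Cd63*, a partner of Timp1, was higher (0.38). *Cd44* (-0.44) and *Cav1* (-0.43) were also lower after 2 Gy. Of 19 matrix substrates 3 were called lower after 0.1 Gy, namely the tenascin *Tnr* (-0.49), the basement membrane link protein *Nid1* (-0.36) and the proteoglycan *Vcan* (-0.54). After 2 Gy *Nid1* (-0.55) and the laminin chain *Lama2* (-0.40) were lower and the proteoglycan *Bcan* was higher (0.42). The median log2 fold change of the substrates was -0.20 after 0.1 Gy and -0.15 after 2 Gy, beside -0.0033 and 0.0045 over all genes. When GC content and length were corrected for as well, 3 of these calls kept an adjusted p under 0.05 and 14 did not. Some of the latter were little changed in size, such as *Nid1* after 2 Gy (-0.50, adjusted p = 0.0715) and *Cav1* (-0.26 after 0.1 Gy, 0.0616, and -0.34 after 2 Gy, 0.0562, edgeR). Those kept were *Serpine2* after 2 Gy (0.0219) and *Tnr* (0.029) and *Nid1* (0.0305) after 0.1 Gy (edgeR with block). The correction also gave 3 calls that the block alone did not, namely *Serpine2* (0.31, adjusted p = 0.033) and the endocytic receptor *Lrp1* (-0.31, 0.0458) after 0.1 Gy at 24 h and *Vcan* (0.65, 0.0067) after 2 Gy at 6 h. *Lrp1* was named after its value was seen.

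By level, leading genes of these lists were *Mmp15* (8.46 RPKM on average) and *Mmp19* (7.43), *Adam9* (90.8) and *Adam10* (63.4), and *Anxa2* (119) of the plasminogen axis. Among regulators they were *Sparc* (1002) and *Thbs1* (533), and among substrates fibronectin, *Fn1* (224), and tenascin C, *Tnc* (192).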

How the data were processed

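Polyadenylated mRNA of 24 astrocyte cultures was sequenced as paired reads in 1 run. Per library, the authors deposited a table of raw counts with gene coordinates and exon length and with no normalization. The labels name the build mm10. Aligner, counting tool and use of strand are not given in the sources used here. Each table lists 49315 genes, and 49056 identifiers are in GENCODE M21.

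Counts were analysed with edgeR 4.0.16 in R 4.3.3 (TMM, edgeR's filter on low counts, quasi-likelihood test with Benjamini-Hochberg adjustment). A fit held only the groups it compared and had no block. CPM used TMM over 24 libraries, log2 values a prior count of 2, and RPKM the deposited exon length. Groups came from the sample labels. Same-numbered libraries deviated together in the dose comparisons (correlation across genes 0.514 to 0.907) and in the time comparisons at 0.1 Gy (0.367 to 0.832) and 2 Gy (0.246 to 0.81), so blocked values are given there. The labels do not say what a number shared between times marks. Between the times at 0 Gy, replicate 3 had 0.0887, and the numbers were not taken to pair. Libraries of a condition differed by far more than sampling noise (chi-square per degree of freedom at least 25.9). This shows that no library was entered again under another number, but cannot show that the cultures were independent. Each library was counted as 1 replicate, as numbered in the labels.

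Alternatives were limma 3.58.1 (voom), DESeq2 1.42.0 (Wald test), scaling by library size alone or by DESeq2's size factors, no filter, at least 10 counts in every library, the block, all 24 libraries in one fit, an added fold threshold, the block with a GC content and length correction (splines with 5 degrees of freedom), and each library left out. Time comparisons in irradiated cells were added later. The tests were tried on simulated counts. Members and gene lists were chosen with earlier results of these data known. Genes named besides members were the list genes called in a dose comparison (up to 4 per list and comparison), the 2 of each list highest in RPKM, the 3 highest markers of each list with any at 0 throughout, and the 3 genes most correlated with each member. Markers near 0 (*Gjb6*, *Cldn5*, *Rbfox3*) and the other endothelial markers were named after their values were seen. A gene that this rule would name is not reported here.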

Additional observations from a re-analysis of the deposited data

Results flagged for a closer look

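In 7 of the 60 groups of 4 libraries (10 genes, 6 conditions) 1 library stood apart from the other 3 by Dixon's criterion, which chance alone gives in about 1 of 20 groups. Replicate 2 of 0.1 Gy at 24 h was low in *Mmp9*, at 1.05 CPM against 2.94 to 3.33, and in *Timp2*, at 730 CPM against 913 to 937. Replicate 4 was low in *Timp1* at 0.1 Gy and 6 h, at 16.8 CPM against 32 to 34.6. It was high in *Mmp13* of mock-irradiated cells at 24 h, at 3.71 CPM against 0.606 to 1.03. Replicate 1 was high in *Mmp3* at 0.1 Gy and 24 h, at 7.04 CPM against 3.93 to 4.13. The remaining ones concern the sparse *Mmp10* in mock-irradiated cells, where replicate 3 at 6 h had 0.0852 CPM (2 counts) against 0.372 to 0.397 and replicate 1 at 24 h had 0.292 CPM (7 counts) against 0.0932 to 0.11. Those of *Mmp9*, *Mmp13*, *Timp1* and *Timp2* follow the order of replicate numbers described above. No explanation was tested.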

How the results depend on the processing

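The count of called members was 0 in every comparison without the block, and voom, DESeq2, other scalings, other filters, all 24 libraries in one fit and an added fold threshold left it at 0. The replicate block raised it to 4 (24 h against 6 h at 0.1 Gy), 3 (the same at 2 Gy) and 1 (*Mmp9*, at 0 Gy) of 9 members, beside 25.7%, 19.2% and 15.3% of all genes. The block with the GC content and length correction gave 5, 3 and 4 of 9. Of all genes it called 5948 of 16210, 4717 of 15965 and 4382 of 15850. The block changed no other call of a member. At 0 Gy the numbers only share a name, since replicate 3 correlated more with another number at 6 h (0.527) than with its own (0.0887), under the limit of 0.1 set for pairing. At 0.1 Gy, where the block is used, replicate 3 also correlated slightly more with another number (0.395) than with its own (0.379). At 0 Gy the block moved the count over all genes from 1064 to 2428. Over all genes the block called 1107 genes after 0.1 Gy and 2100 after 2 Gy at 24 h, and with the correction 239 and 452. After 2 Gy at 24 h DESeq2 called 93 and the fit of all 24 libraries 108, against 0 in edgeR without the block (570 at an unadjusted p under 0.05). For 2 Gy at 6 h DESeq2 gave 1 and the block with the correction 155, between the doses they gave 39 and 112 (all 24 libraries 15), and for the interaction 7 and 283 (block 1143), each against 0. Between the times, the counts of 1064, 1609 and 1112 genes at 0, 0.1 and 2 Gy became 1969, 2535 and 2108 with DESeq2 and 4382, 5948 and 4717 with the block and correction. With the block they were 4181 at 0.1 Gy and 3072 at 2 Gy, with all 24 libraries 2488 at 0 Gy and 2543 at 2 Gy, and without the filter 730 at 2 Gy. When single replicates were left out, the count ranged from 0 to 1 at 0.1 Gy between the times without the block (*Mmp9*, without replicate 2 of 6 h). With the block it ranged from 0 to 1 for 2 Gy at 24 h and for the interaction (*Mmp14*, without replicate 3), from 0 to 2 between the times at 0 Gy and from 1 to 3 between the times at 2 Gy.

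When single libraries were left out, in dose comparisons at 6 h *Mmp3* ranged from -0.13 to 0.32 and *Timp1* from -0.25 to 0.079 after 0.1 Gy, and *Mmp3* from -0.36 to 0.063 and *Mmp13* from -0.27 to 0.90 after 2 Gy. At 24 h *Mmp3* ranged from -0.017 to 0.39 and *Mmp13* from -1.03 to 0.49 after 0.1 Gy, *Mmp13* from -0.92 to 0.67, *Mmp2* from -0.36 to 0.83 and *Mmp14* from -0.017 to 0.36 after 2 Gy, and *Mmp12* from -0.82 to 0.71 between the doses. In the interaction *Mmp13* ranged from -1.44 to 0.18 and *Mmp9* from -0.15 to 0.62. Between the times *Timp1* ranged from -0.33 to 0.14 at 0 Gy and from -0.15 to 0.23 at 0.1 Gy, and *Mmp14* from -0.14 to 0.13 at 2 Gy. The block with the correction gave 21 of 81 member values (9 genes, 9 comparisons) the opposite sign, among them *Mmp12*, which went from -0.11 to 0.26 after 0.1 Gy at 24 h, from -0.13 to 0.24 after 2 Gy at 24 h and from -0.39 to 0.22 in the interaction, and *Timp1*, from 0.020 to -0.15 after 2 Gy at 24 h. None of these was called. It also turned *Mmp14* to -0.064 after 2 Gy at 24 h and to -0.032 in the interaction, and *Timp1* to 0.0085 between the times at 0 Gy. Library size alone turned *Mmp14* to 0.047 between the times at 2 Gy. *Mmp9*, *Mmp13* and *Mmp12* kept their direction between the times at each dose, and *Mmp3* at 0 and 0.1 Gy, under every alternative run. The cause of the changes was not tested. Depth limits *Mmp10* and replicate 2 of *Mmp13* (5 to 16 counts).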
